A study of Mus musculus with 12 samples.

Results

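Adenylyl cyclases make the messenger cyclic AMP (cAMP) and cAMP phosphodiesterases break it down. The 9 genes described here were 6 membrane adenylyl cyclases (Adcy2, Adcy4, Adcy6, Adcy7, Adcy8 and Adcy9) and 3 phosphodiesterases of the PDE4 family (Pde4a, Pde4b and Pde4d). They were taken by gene symbol from the table of 49585 genes, and each symbol matched 1 entry. The rule uses no measured value, but the 9 genes were chosen with earlier results of these data known. Lungs of mice labelled Balb/cJ gave poly-A RNA-seq libraries in 4 groups of 3: mice lacking Rgs4 exposed to the mould Aspergillus fumigatus (KO_Af, libraries 12 to 14), the same genotype given phosphate-buffered saline (KO_PBS, 9 to 11), wild-type mice exposed to A. fumigatus (WT_Af, 18 to 20) and wild-type mice given saline (WT_PBS, 15 to 17). Rgs4 is a GTPase-activating protein that ends signals of Gi and Gq proteins, and the study asked about its role in asthma. The labels do not say how the knockout was made, which cells it covers, or how, when and at what dose the mould was given. Nor do they say that each library came from a separate mouse, so the p-values hold for the spread among libraries, which may be technical.

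Membrane adenylyl cyclases convert ATP to cAMP and are switched on by the stimulatory G protein Gs, which beta-adrenergic, prostaglandin and adenosine receptors engage. In airway smooth muscle cAMP favours relaxation, and in most leukocytes it restrains inflammatory responses. PDE4 enzymes are specific for cAMP and are the targets of rolipram and roflumilast, anti-inflammatory drugs used or tested in airway disease. The cyclases differ in what else controls them. Adcy6, like its close relative Adcy5, is inhibited by Gi and by calcium, Adcy8 is stimulated by calcium and calmodulin, Adcy2, Adcy4 and Adcy7 can be boosted by G protein beta-gamma subunits, and Adcy9 responds poorly to the plant compound forskolin.

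Total reads recovered from the table ran from 20708884 to 30229446 per library. The 9 genes had between 205 and 6137 reads in any library, and all passed the filter of 1 CPM (the authors' scaled read count) in at least 3 libraries, at 8.06 CPM or more in every library. Rgs4 itself averaged 1.15 ± 0.311 CPM in KO_Af and 45.1 ± 3.27 in WT_Af, and 0.892 ± 0.282 CPM in KO_PBS and 22.9 ± 2.63 in WT_PBS (SD, n = 3 each), so the libraries carried the genotype they were labelled with. The lung label also held, with 8 alveolar type 2 markers summing to between 13861 and 27776 CPM. Library KO_Af 12 and library WT_PBS 17 stood apart by 8 squamous epithelium markers, which summed to 311 and 617 CPM there and to at most 34.7 CPM elsewhere. Of the defining markers Krt6b was at 0 in 7 libraries, Sprr3 in 7 and Dsg3 in 9. Results were therefore also computed without both libraries. Adcy6 shares 605 exon bases with the antisense gene Gm29331, which had at most 2.02 CPM. No source used here says if reads were counted by strand, and without strand the reads of this pair cannot be told apart.

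cAMP acts on transcription through CREB, which binds the cAMP response element TGACGTCA or the short site TGACG. Promoters were searched on both strands over 250 bases before each start listed by RefSeq (GRCm38.p6). In GRCm38 (GENCODE M21) the 9 protein-coding genes lie at chr13:68620043-68999541 on the minus strand (Adcy2), chr14:55769057-55784095, minus (Adcy4), chr15:98589973-98610076, minus (Adcy6), chr8:88272403-88329962, plus (Adcy7), chr15:64697084-64922296, minus (Adcy8), chr16:4287529-4420498, minus (Adcy9), chr9:21165714-21213248, plus (Pde4a), chr4:102087543-102607259, plus (Pde4b) and chr13:108449948-109953461, plus (Pde4d). The table of promoters held 14 promoters of 7 of the 9 genes, which did not include Adcy6 and Adcy8. The full element was in 0 of these 14 promoters, against 1.55% of all 32851 promoters in the table. The short site, whose letters are contained in the full element, was in 4 of 14 (28.6%), against 17.8% of all promoters. The 4 are printed for the 120 bases before the start, in the direction of transcription. No listed promoter of Adcy2, Adcy4 or Pde4d held the short site. Whether the site goes with the changes of these genes under A. fumigatus was not tested. Capitals mark the short site, which reads CGTCA where it lies on the other strand.
Adcy7, chr8:88282872-88282991, plus strand: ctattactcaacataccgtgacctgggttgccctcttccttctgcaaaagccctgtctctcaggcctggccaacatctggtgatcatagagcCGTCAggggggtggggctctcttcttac
Adcy9, chr16:4420499-4420618, minus strand: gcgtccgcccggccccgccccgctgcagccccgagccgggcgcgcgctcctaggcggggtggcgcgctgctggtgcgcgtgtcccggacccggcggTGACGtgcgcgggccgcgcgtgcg
Pde4a, chr9:21183981-21184100, plus strand: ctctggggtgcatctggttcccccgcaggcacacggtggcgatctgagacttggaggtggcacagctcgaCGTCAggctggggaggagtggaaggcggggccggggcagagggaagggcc
Pde4b, chr4:102421435-102421554, plus strand: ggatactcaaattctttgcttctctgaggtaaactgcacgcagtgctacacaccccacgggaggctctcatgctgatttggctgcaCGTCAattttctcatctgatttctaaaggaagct
Adcy7, Pde4a and Pde4b have several listed starts, and of each the one shown is the start whose promoter held the short site. A match is a description of these letters and not a measured binding site.

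After exposure to A. fumigatus 4 of the 6 cyclases, Adcy4, Adcy6, Adcy8 and Adcy9, were lower in both genotypes, and so was Pde4a. The largest change of the 9 was in Adcy8, which in KO_Af lungs stood at 0.220 of its KO_PBS level and in WT_Af lungs at 0.384 of its WT_PBS level. Pde4b was the 1 gene of the 9 that passed the test upwards, and it did so in KO lungs. In KO lungs 6 of the 9 genes passed the test, 1 higher and 5 lower, where 57.9% of all 16126 tested genes passed (28.7% higher and 29.2% lower). In WT lungs 6 passed, 0 higher and 6 lower, against 51.8% of all tested genes (26.2% higher and 25.6% lower). The share that passed is close to that of all genes. How many of all tested genes were lower in both genotypes was not counted. The median log2 change of the 9 genes was -0.62 in KO and -0.51 in WT lungs, and that of all tested genes was -0.02 in both. Because the 9 genes were chosen with earlier results of these data known, this difference is a description only. All tests below are limma on log2(CPM + 0.5), with p-values adjusted by Benjamini-Hochberg over all 16126 genes and a threshold of 0.05, and changes are given with their standard error (SE).

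**Figure D1:**
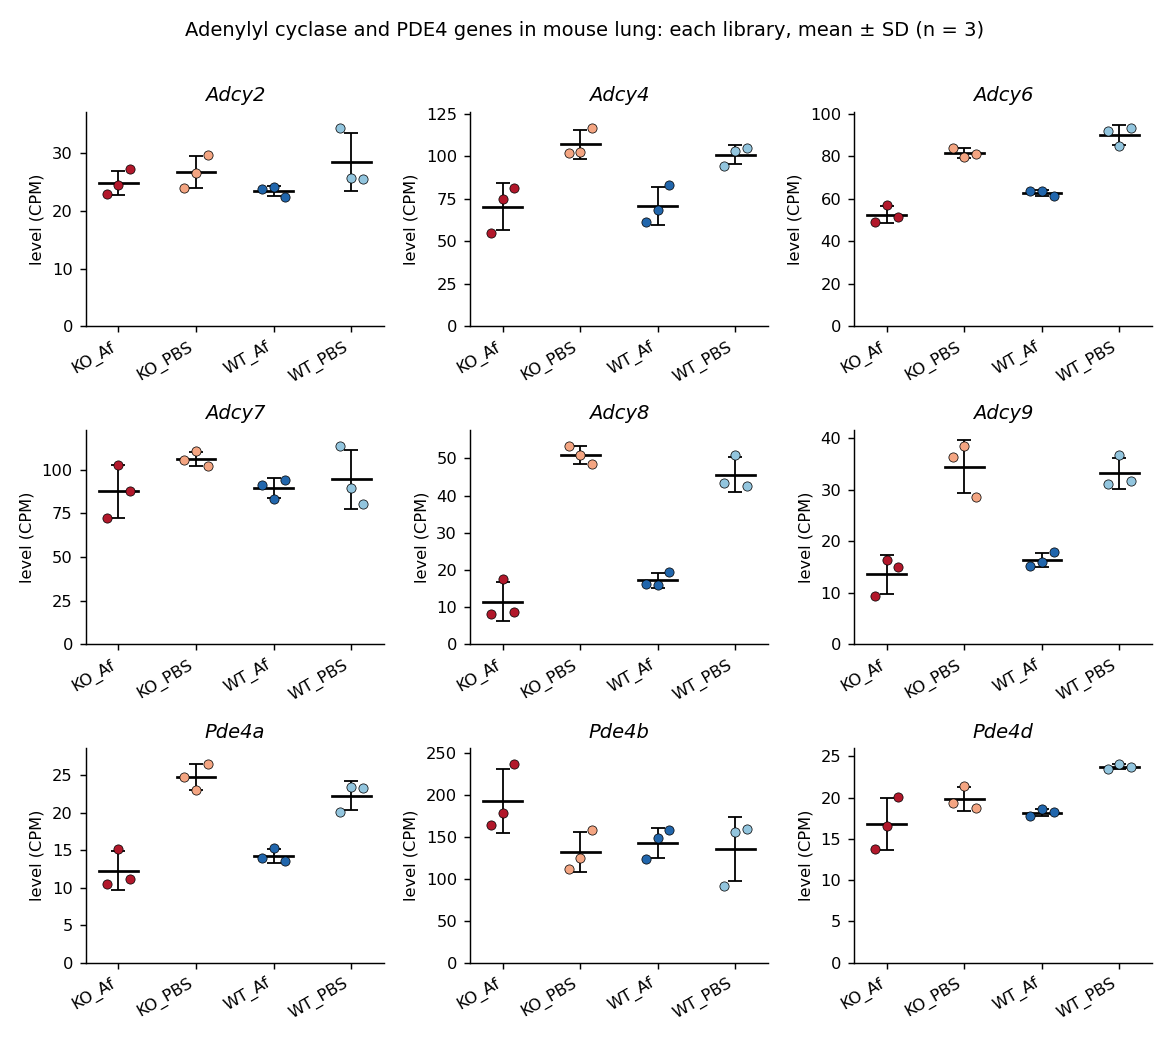
Level in CPM of each of the 9 genes in every library (points) with the mean and SD of 3 libraries (bar and error bars), by group, with the y axis starting at 0. Adcy8 and Adcy9 lie far lower in both Af groups than in both PBS groups, and Pde4b in KO_Af, at 164.5 to 236.6 CPM, lies above all other groups.

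Adcy8, the calcium-stimulated cyclase, had 8.06, 17.6 and 8.83 CPM in KO_Af, against 53.3, 51.0 and 48.5 CPM in KO_PBS. In WT_Af it had 16.3, 15.9 and 19.5 CPM, against 43.4, 51.0 and 42.7 CPM in WT_PBS. All Af libraries lay below all PBS libraries, and within KO_Af library 13 held about the WT_Af level while the other two were lower. The log2 change under Af was -2.18 ± 0.22 in KO (adjusted p = 1.05e-05) and -1.38 ± 0.22 in WT (adjusted p = 3.74e-04). The difference between these changes, the interaction of genotype and exposure, was -0.80 ± 0.32 and did not pass the test (unadjusted p = 0.0261, adjusted p = 0.368). It was called without KO_Af 13, at -1.14 with an adjusted p of 0.0125, where 1.16% of all genes were called. It was also called with all 12 libraries when each was weighted by its spread (-0.89, adjusted p = 0.0232). Without KO_Af 12, a library with squamous markers, it was -0.60 and did not pass. The interaction was called in 2 of 27 settings, the main one included.

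Adcy9 had 9.32, 16.5 and 15.0 CPM in KO_Af, against 36.4, 38.5 and 28.6 CPM in KO_PBS. Its WT_Af libraries had 15.2, 16.1 and 17.9 CPM, against 31.2, 36.7 and 31.7 CPM in WT_PBS. Levels under Af were thus at 0.396 of the PBS level in KO and at 0.502 in WT lungs on the fitted scale, with no overlap between exposures. The log2 change was -1.34 ± 0.18 in KO (limma adjusted p = 9.24e-05) and -0.995 ± 0.18 in WT (adjusted p = 9.44e-04).

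Adcy6, which Gi inhibits, had 49.1, 57.1 and 51.5 CPM in KO_Af, against 84.0, 79.4 and 80.9 CPM in KO_PBS. The WT_Af libraries had 63.4, 63.6 and 61.3 CPM, against 91.8, 84.7 and 93.2 CPM in WT_PBS. The 4 groups did not overlap with each other, and KO libraries lay below WT libraries under either exposure. Adcy6 fell by 0.63 ± 0.07 on the log2 scale in KO (limma adjusted p = 2.89e-05) and by 0.51 ± 0.07 in WT lungs (adjusted p = 1.70e-04), the smallest SE of the 9 genes.

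Adcy4, the cyclase at the highest level per kb of exon in all 4 groups, had 54.7, 74.9 and 81.6 CPM in KO_Af, against 101.8, 102.8 and 116.7 CPM in KO_PBS. In WT_Af it had 61.4, 68.4 and 82.9 CPM, against 94.5, 103.5 and 105 CPM in WT_PBS. All Af libraries were below all PBS libraries, but the Af libraries of each genotype spread more widely. The log2 change was -0.62 ± 0.15 in KO (limma adjusted p = 0.00346) and -0.52 ± 0.15 in WT (adjusted p = 0.0113).

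Adcy7, a cyclase prominent in blood and immune cells, had 72.5, 102.9 and 87.7 CPM in KO_Af, against 105.6, 110.7 and 102.3 CPM in KO_PBS. Its WT_Af values were 91.3, 83.2 and 93.9 CPM, against 113.5, 89.4 and 80.5 CPM in WT_PBS. Exposures overlapped in both genotypes, and neither change passed the test (log2 -0.29 ± 0.14, limma adjusted p = 0.0927 in KO, and -0.07 ± 0.14, adjusted p = 0.710 in WT). In KO lungs it passed without KO_Af 13, at -0.41 with an adjusted p of 0.0246. Without WT_PBS 15 the WT value was 0.07, of the opposite sign.

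Adcy2 had 23.0, 24.4 and 27.2 CPM in KO_Af, against 24.0, 26.7 and 29.7 CPM in KO_PBS. In WT_Af it had 23.9, 24.1 and 22.4 CPM, against 34.4, 25.8 and 25.6 CPM in WT_PBS, where library 15 was the high one. The WT groups did not overlap and the KO groups did. The log2 change was -0.10 ± 0.12 in KO (limma adjusted p = 0.497) and -0.26 ± 0.12 in WT (adjusted p = 0.0918), with 95% intervals of -0.37 to 0.17 and -0.53 to 0.01. Without WT_PBS 17 and KO_Af 12, the libraries with squamous markers, the WT change was -0.34 with an adjusted p of 0.0491.

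Among the phosphodiesterases, Pde4a had 10.4, 15.2 and 11.1 CPM in KO_Af, against 24.7, 23.0 and 26.5 CPM in KO_PBS. WT_Af libraries held 13.9, 15.3 and 13.6 CPM, against 20.1, 23.4 and 23.3 CPM in WT_PBS. No Af library reached the level of a PBS library. The log2 change was -1.0 ± 0.13 in KO (limma adjusted p = 7.21e-05) and -0.62 ± 0.13 in WT (adjusted p = 0.00230), and the interaction of -0.38 ± 0.19 did not pass (adjusted p = 0.510).

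Pde4b, which in mouse leukocytes is the PDE4 gene induced by inflammatory stimuli, had 164.5, 178.1 and 236.6 CPM in KO_Af, against 111.5, 125.0 and 157.8 CPM in KO_PBS. In WT_Af it had 123.2, 148.6 and 157.7 CPM, against 91.0, 155.7 and 159.8 CPM in WT_PBS. The KO groups did not overlap, and the WT groups did, with WT_PBS 15 below all other libraries. The log2 change was 0.55 ± 0.22 in KO (limma adjusted p = 0.0468) and 0.12 ± 0.22 in WT (adjusted p = 0.674). The KO call rests close to the threshold: it was lost without KO_Af 13, KO_Af 14, KO_PBS 9, KO_PBS 10, WT_Af 18, WT_Af 19 or WT_Af 20 (adjusted p of 0.0627, 0.169, 0.157, 0.111, 0.0505, 0.0597 and 0.0548). In WT lungs the value turned to -0.15 without WT_PBS 15, and the interaction, 0.43 ± 0.31, did not pass (adjusted p = 0.690).

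Pde4d, which in mice has been tied to the contraction of airway smooth muscle, had 13.8, 16.6 and 20.1 CPM in KO_Af, against 19.3, 21.4 and 18.7 CPM in KO_PBS. Its WT_Af levels were 17.7, 18.6 and 18.2 CPM, against 23.5, 24.0 and 23.7 CPM in WT_PBS. The WT groups were tight and did not overlap, while the KO groups overlapped. Pde4d fell by 0.38 ± 0.12 on the log2 scale in WT (limma adjusted p = 0.0191), with adjusted p of 0.0523 without WT_Af 18 and 0.0529 without WT_PBS 16. In KO the change was -0.24 ± 0.12 (adjusted p = 0.0975), and it passed without KO_Af 14, at -0.38 with an adjusted p of 0.0104. Across the 9 genes, groups of the 2 exposures did not overlap for 6 genes in KO and 7 in WT, where 62.9% and 65.4% of all tested genes did not.

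**Figure D2:**
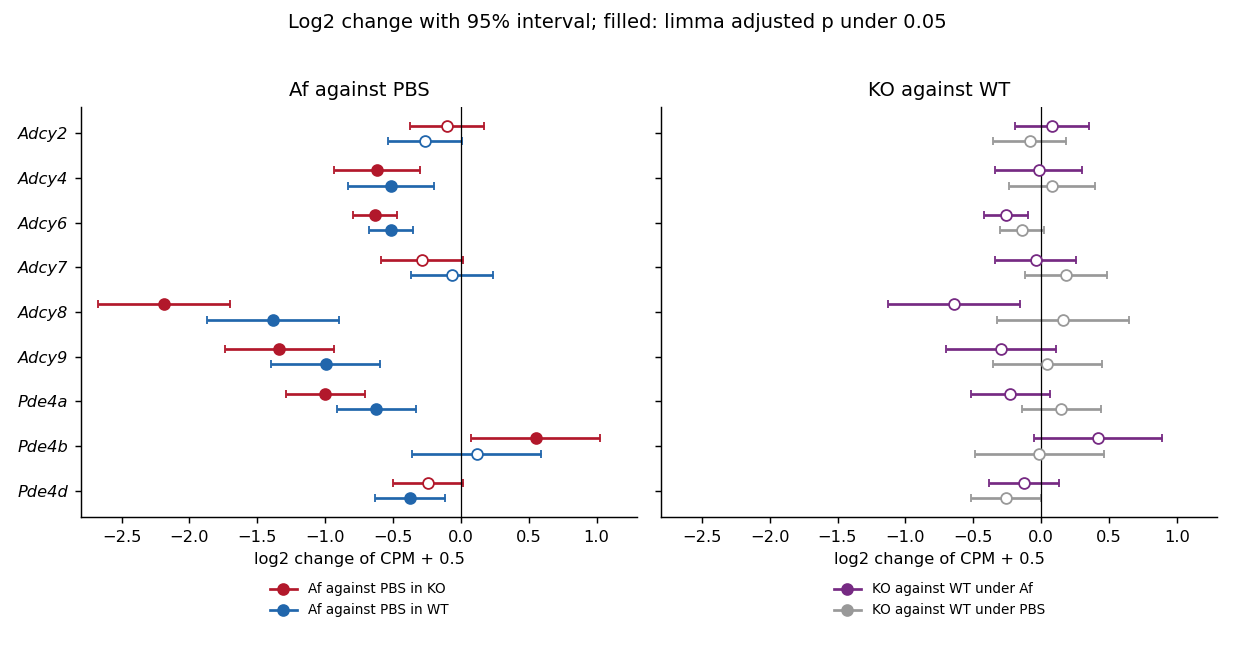
Log2 change of CPM + 0.5 with its 95% interval for each of the 9 genes, under Af against PBS in KO and WT (left panel) and in KO against WT under Af and PBS (right panel), with filled points where the limma adjusted p is under 0.05. In the left panel 5 of 9 genes passed in both genotypes, all of them lower, and in the right panel every point is open. Of all tested genes 29.2% were lower under Af in KO and 25.6% in WT, and the share lower in both was not counted.

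Between genotypes none of the 9 genes passed the test with limma. Under PBS 0 of 9 were called, where 3.55% of all tested genes were. There, 1 gene, Pde4d, had an unadjusted p under 0.05, against 17.3% of all genes, and edgeR and DESeq2 on the recovered reads also called 0. Pde4d was at 19.8 ± 1.43 CPM in KO_PBS and 23.8 ± 0.266 CPM in WT_PBS, with no overlap (log2 -0.26 ± 0.12, limma adjusted p = 0.287). Groups did not overlap for Adcy6 and Pde4d, 2 of the 9 genes, where 33.1% of all tested genes did not. The 95% intervals of the log2 difference lay within -0.52 and 0.65 for all 9 genes, so that under PBS differences of up to about that size remain possible. With limma weighting each library by its spread, Pde4d was called under PBS (log2 -0.26, adjusted p = 0.0343), where 16.4% of all genes were.

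Under Af 0 of 9 were called with limma, where 0.0868% of all tested genes were. Adcy6 and Adcy8 had an unadjusted p under 0.05, 2 of 9 against 11.2% of all genes. Adcy6 averaged 52.6 ± 4.13 CPM in the KO_Af libraries, against 62.8 ± 1.27 in the WT_Af ones, with no overlap (log2 -0.26 ± 0.07, adjusted p = 0.282). DESeq2 called it (adjusted p = 0.0481), where it called 1.17% of all genes, and edgeR called 0 of the 9. Adcy8 averaged 11.5 ± 5.30 CPM in KO_Af, against 17.2 ± 1.95 in WT_Af (log2 -0.64 ± 0.22, limma adjusted p = 0.373). Without KO_Af 13 the difference was -0.98 with a limma adjusted p of 0.00494, where 0.691% of all genes were called. Without KO_Af 12 it was -0.44 and did not pass, and it was called in 2 of 28 settings, the main one included. Pde4b averaged 193.1 ± 38.3 CPM in KO_Af, against 143.2 ± 17.9 in WT_Af, and did not overlap either (log2 0.42 ± 0.22, adjusted p = 0.477). Groups without overlap were thus 2 of 9, against 13.8% of all tested genes.

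In the fit with weighted libraries, 4 of the 9 genes differed between genotypes under Af, where 13.7% of all genes did: Adcy6 (log2 -0.28, adjusted p = 0.00907), Adcy8 (-0.77, 0.00959), Pde4a (-0.34, 0.0312) and Pde4b (0.62, 0.0241). In that fit the interaction was called for Adcy8, as given above, and Pde4b (0.88, adjusted p = 0.0263), and for 9.93% of all genes. Averaged over both exposures 0 of 9 were called without weights, where 2.16% of all tested genes were, and Adcy6 and Pde4d had an unadjusted p under 0.05 (2 of 9, against 19.2% of all genes). Adcy6 came nearest, with a log2 difference of -0.20 ± 0.05 (limma adjusted p = 0.0722). Its adjusted p was 0.00427 in DESeq2, which called 7.21% of all genes, and edgeR called 0 of the 9. Without KO_Af 13, Adcy6 (log2 -0.23, adjusted p = 0.0302) and Adcy8 (-0.41, 0.0202) passed, where 5.06% of all genes did. Without KO_Af 12 these differences were -0.18 for Adcy6 and -0.14 for Adcy8, and neither passed. For the interaction 0 of 9 were called, against 0.00620% of all tested genes, and Adcy8 alone had an unadjusted p under 0.05, where 10.9% of all genes did. On the interaction edgeR and DESeq2 called 0 as well.

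Levels of different genes were compared per kb of exon, with the exons of all annotated transcripts joined. The number of transcripts ran from 1 (Adcy2) to 20 (Pde4d), and joining many can lengthen a gene and lower its level per kb. The order, sums and shares below depend on this length. In KO_Af, Pde4b stood first at 18.3 CPM per kb and overlapped with Adcy4 at 15.1, which overlapped with Adcy7 at 13.0. Adcy6 (7.75) and Adcy2 (5.91) followed apart from their neighbours, and Adcy9 (2.62), Pde4a (1.60), Adcy8 (1.41) and Pde4d (1.4) each overlapped with the next. KO_PBS had Adcy4 first (22.9 CPM per kb), followed by Adcy7 (15.8), Pde4b (12.4) and Adcy6 (12.0), of which Pde4b and Adcy6 overlapped. In WT_Af the first 3 were Adcy4 (15.2), Pde4b (13.6) and Adcy7 (13.3), each overlapping with the next. The order in WT_PBS was Adcy4 (21.6 CPM per kb), Adcy7 (14.0), Adcy6 (13.3), Pde4b (12.8), Adcy2 (6.79), Adcy9 (6.38), Adcy8 (5.60), Pde4a (2.91) and Pde4d (1.98). There Adcy7, Adcy6 and Pde4b overlapped from one to the next, as did Adcy2, Adcy9 and Adcy8. Adcy8, the seventh of 9 in both PBS groups and in WT_Af and the eighth in KO_Af, reached 1.41 CPM per kb in KO_Af and 2.11 in WT_Af, against 6.25 in KO_PBS and 5.60 in WT_PBS.

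Summed over all 10 adenylyl cyclase genes, the level was 51.3 ± 7.52 CPM per kb in KO_Af and 79.4 ± 0.480 in KO_PBS, and 54.6 ± 2.33 in WT_Af and 77.4 ± 2.06 in WT_PBS (SD, n = 3 each). The sums of Af and PBS libraries did not overlap in either genotype. Adcy4 kept a share of 29.2% of the sum in KO_Af and 28.9% in KO_PBS, and 27.7% in WT_Af and 27.98% in WT_PBS. Adcy7 made up 25.3 ± 1.20% in KO_Af and 19.9 ± 0.824% in KO_PBS, and 24.4 ± 1.23% in WT_Af and 18.1 ± 2.76% in WT_PBS. Adcy8 made up 2.69 ± 0.936% in KO_Af and 7.87 ± 0.416% in KO_PBS, and 3.87 ± 0.271% in WT_Af and 7.25 ± 0.801% in WT_PBS. Adcy2 made up 11.6 ± 1.36% in KO_Af and 8.01 ± 0.797% in KO_PBS, and 10.2 ± 0.815% in WT_Af and 8.75 ± 1.3% in WT_PBS. Shares of Af and PBS libraries did not overlap in either genotype for Adcy7 and Adcy8, nor for Adcy1, Adcy3, Adcy5 and Adcy9, and for Adcy2 they overlapped in WT. These shares were not tested.

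The 4 PDE4 genes summed to 21.7 ± 3.99 CPM per kb in KO_Af and 18.1 ± 2.32 in KO_PBS, and to 17.4 ± 1.73 in WT_Af and 18.8 ± 3.85 in WT_PBS, with overlap between all groups. Pde4b made up 84.2 ± 2.01% of the sum in KO_Af and 68.3 ± 3.68% in KO_PBS, and 77.6 ± 2.08% in WT_Af and 67.4 ± 6.38% in WT_PBS, and Af and PBS libraries did not overlap in this share. Per kb, Pde4b exceeded Pde4a by 11.4, 8.49 and 15.4 times in KO_Af, against 3.27, 3.95 and 4.32 times in KO_PBS. In WT_Af it did so by 6.42, 7.04 and 8.43 times, against 3.29, 4.82 and 4.97 times in WT_PBS. The KO_Af libraries thus had the highest 3 values of this ratio among the 12, and the share and the ratio were not tested.

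**Figure D3:**
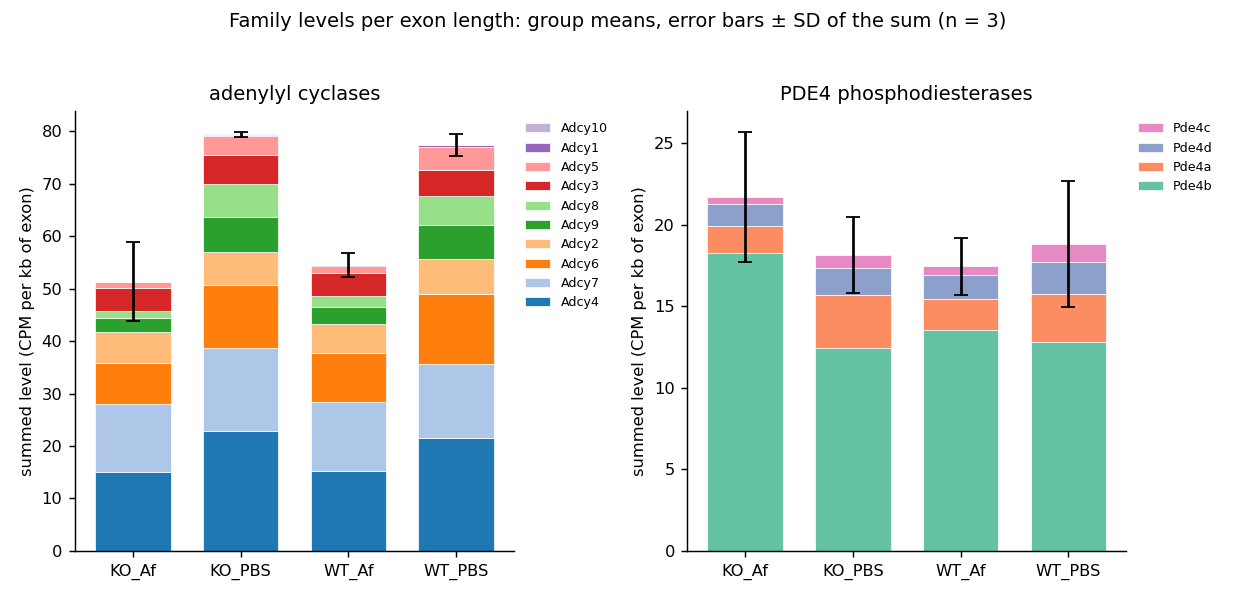
Summed level per kb of exon of the 10 adenylyl cyclase genes (left) and the 4 PDE4 genes (right) by group, each colour the mean of 1 gene over 3 libraries and the error bar the SD of the sum. The cyclase sum is lower in both Af groups (51.3 and 54.6 CPM per kb) than in both PBS groups (79.4 and 77.4), while the PDE4 sum lies between 17.4 and 21.7 in all groups with Pde4b as its main part.

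Markers of many cell types also changed under Af, in lungs where 57.9% (KO) and 51.8% (WT) of all tested genes passed the test. Among 8 alveolar type 2 markers, 3 were lower under Af and 0 higher in each genotype. The median log2 change of these 8 was -0.31 in KO and -0.33 in WT. Of 10 endothelial markers 7 were lower in KO and 5 in WT lungs under Af and 0 were higher, with median log2 changes of -0.56 and -0.53. Their summed level was 3094 to 4164 CPM in KO_Af and 5544 to 5819 in KO_PBS, and 3459 to 4209 in WT_Af and 4202 to 5068 in WT_PBS. Of 7 cardiac muscle markers, which lung tissue holds in the walls of pulmonary veins in mice, 5 were lower in KO and 2 in WT lungs and 0 were higher. They summed to 125.3 to 564.6 CPM in KO_Af and 1098 to 1626 in KO_PBS, and to 139.6 to 623.0 in WT_Af and 1012 to 1890 in WT_PBS. Of 8 alveolar type 1 markers 7 were lower in each genotype and 1 was higher in KO lungs, with sums of 2113 to 3636 CPM in KO_Af and 4059 to 6146 in KO_PBS, and 2008 to 2940 in WT_Af and 5044 to 6057 in WT_PBS.

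Of 8 ciliated cell markers 7 were lower in KO and 8 in WT lungs, and of 7 club cell markers 6 were lower in each, with 0 higher. Of 8 fibroblast markers 2 were higher and 5 lower in KO, and 1 was higher and 6 lower in WT lungs, with sums of 2465 to 3147 CPM in KO_Af and 3250 to 3304 in KO_PBS, and 2637 to 2983 in WT_Af and 3266 to 5224 in WT_PBS. Of 6 neuron and glia markers 1 was higher and 3 lower in KO, and 0 were higher and 4 lower in WT, with sums of 7.44 to 11.2 CPM in KO_Af and 11.6 to 24.3 in KO_PBS, and 7.86 to 16.7 in WT_Af and 15.6 to 44.6 in WT_PBS. Smooth muscle markers split, with 4 of 8 higher and 3 lower in KO and 4 higher and 0 lower in WT. Of 9 monocyte and macrophage markers 8 were higher under Af in each genotype and 0 were lower, and they summed to 1285 to 1746 CPM in KO_Af and 495.2 to 531.1 in KO_PBS, and to 1221 to 1336 in WT_Af and 471.2 to 575.3 in WT_PBS. Of 9 neutrophil markers 4 were higher in KO and 7 in WT lungs and 0 were lower, with sums of 554.9 to 854.1 CPM in KO_Af and 285.0 to 526.5 in KO_PBS, and 417.6 to 561.4 in WT_Af and 138.7 to 222.8 in WT_PBS. Of 10 T cell markers 3 were higher in KO and 9 in WT lungs, and library WT_Af 18 had the highest sum, 377 CPM, where the other libraries had 42.9 to 140.3 CPM. Of 8 alveolar macrophage markers 2 were higher and 2 lower in KO, and 2 higher and 3 lower in WT. Of 7 B cell and plasma cell markers 2 were higher in KO and 3 in WT, and of 6 eosinophil markers 4 in each, with 0 lower. None of the endothelial, cardiac, alveolar type 1 or monocyte and macrophage markers was at 0 in any library, and the neuron marker Snap25 and the eosinophil marker Epx were each at 0 in 1. CPM is relative to all reads of a library. In lung tissue, fewer cells of a type, less RNA per cell and more RNA from other cells therefore cannot be told apart. The part of these markers in the changes of the 9 genes was not tested. Without the libraries WT_PBS 17 and KO_Af 12, 6 of the 9 genes were called in KO and 7 in WT lungs under Af, where 58.8% and 55.3% of all genes were, and Adcy8 was at -1.98 in KO (against -2.18 with all libraries).

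The genes most like each of the 9 were sought as the 2 with the highest Pearson correlation over the 12 libraries, which share the exposure and genotype groups. Genes that change with the exposure can reach high values through that alone, and no link between genes was tested. Adcy8 was closest to Adgrg6 (r = 0.997) and Gucy1a3 (0.997), which encodes a subunit of the nitric oxide receptor guanylyl cyclase. Gucy1a3 averaged 94.0 CPM in KO_Af and 311.7 in KO_PBS, and 127.1 in WT_Af and 278.9 in WT_PBS. Adcy9 was closest to Zc3h7b (0.995) and Nr2c2 (0.994), Adcy6 to Gprasp1 (0.992) and Ulk2 (0.988), Adcy4 to Wdr59 (0.983) and Mef2a (0.98), and Pde4a to Nr2f2 (0.987) and Evi5l (0.982). Pde4d was closest to Aak1 (0.972) and Rapgef1 (0.967). Values were lower for the other three, with Adcy2 closest to N4bp2os (0.898) and Adamts17 (0.870), Adcy7 to St6gal1 (0.899) and Supt7l (0.892), and Pde4b to Ptgis (0.862) and Mboat1 (0.853). Ptgis, the prostacyclin synthase, averaged 92.9 CPM in KO_Af and 78.6 in KO_PBS, and 75.9 in WT_Af and 81.9 in WT_PBS.

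Of the 3 other adenylyl cyclases tested, 3 were lower under Af in KO and 2 in WT lungs, and the median log2 change was -1.24 in KO and -1.57 in WT. Adcy5, the relative of Adcy6 that is prominent in heart, was at 8.28 ± 0.211 CPM in KO_Af and 26.2 ± 3.20 in KO_PBS, and at 10.1 ± 1.79 in WT_Af and 30.8 ± 5.47 in WT_PBS. It fell by 1.60 ± 0.15 on the log2 scale in KO (limma adjusted p = 5.94e-06) and by 1.57 ± 0.15 in WT lungs (adjusted p = 1.01e-05). Adcy1, which calcium and calmodulin stimulate like Adcy8, was at 1.36 ± 0.197 CPM in KO_Af and 3.87 ± 0.472 in KO_PBS, and at 1.33 ± 0.329 in WT_Af and 4.93 ± 0.360 in WT_PBS (log2 -1.24 ± 0.16, adjusted p = 6.74e-05 in KO, and -1.58 ± 0.16, adjusted p = 1.64e-05 in WT). Adcy3 fell by 0.37 ± 0.13 in KO (adjusted p = 0.0249), and the call was lost without KO_Af 12, KO_Af 14, KO_PBS 9, KO_PBS 10 or KO_PBS 11 (adjusted p of 0.0804, 0.0827, 0.0524, 0.0595 and 0.0645). In WT its change of -0.17 ± 0.13 did not pass (adjusted p = 0.285). Adcy10, the soluble cyclase, had at most 0.754 CPM and was not tested.

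Other cAMP phosphodiesterases were mostly lower. Of 12 tested, 7 were lower and 1 higher under Af in each genotype, with a median log2 change of -0.35 in KO and -0.40 in WT. Pde8b, a cAMP-specific enzyme of high affinity, was at 16.7 ± 0.797 CPM in KO_Af and 58.9 ± 12.1 in KO_PBS, and at 18.7 ± 1.4 in WT_Af and 58.8 ± 4.0 in WT_PBS. It fell by 1.77 ± 0.13 on the log2 scale in KO (limma adjusted p = 1.14e-06) and by 1.63 ± 0.13 in WT lungs (adjusted p = 3.30e-06). Pde7b fell by 0.69 ± 0.09 in KO and by 0.87 ± 0.09 in WT (limma adjusted p of 8.81e-05 and 2.24e-05), and Pde3a, which cGMP inhibits, by 1.14 ± 0.16 in KO and by 0.92 ± 0.16 in WT (adjusted p of 1.19e-04 and 7.00e-04). Pde7a fell by 0.29 ± 0.10 in KO and by 0.65 ± 0.10 in WT (adjusted p of 0.0215 and 2.03e-04), and its KO call was lost without KO_PBS 9 or KO_PBS 10 (adjusted p of 0.0757 and 0.0970). Pde2a is listed under 2 identifiers, of which the one with the higher mean was used, so its value is uncertain.

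Between genotypes Pde10a was lower in KO_PBS, with 1.1 ± 0.334 CPM against 2.87 ± 0.649 in WT_PBS (log2 -1.08 ± 0.22, limma adjusted p = 0.0235), and averaged over both exposures (-0.68 ± 0.16, adjusted p = 0.0492). Its PBS libraries ran from 0.743 to 3.52 CPM, and the PBS call was lost without KO_PBS 9, KO_PBS 10, WT_PBS 15 or WT_PBS 16 (adjusted p of 0.0747, 0.114, 0.0835 and 0.0612). The averaged call was lost without any one of 11 libraries, all but KO_Af 13, with adjusted p of 0.0577 to 0.134. With limma it was also lost with plain CPM (adjusted p = 0.0525) and a pseudocount of 0.1 (0.0524). Filters of 0.3 CPM in 3 libraries (0.0505) or a mean of 1 CPM (0.0507), and no filter (0.110), lost it too. In edgeR its adjusted p was 0.0518. Without a filter the PBS call was lost as well (limma adjusted p = 0.0629).

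Receptors that act through Gs, listed together with their Ramp partner proteins, split in direction. Of 17 tested, 6 were higher and 8 lower in KO, and 8 were higher and 8 lower in WT lungs under Af, with median log2 changes of -0.22 and -0.12. Higher were Ptger4, a receptor of prostaglandin E2 (log2 1.46 ± 0.14 in KO, 1.66 ± 0.14 in WT, limma adjusted p of 6.31e-06 and 3.83e-06), Ptgir, the prostacyclin receptor (0.89 ± 0.12 in KO, 1.58 ± 0.12 in WT, adjusted p of 9.42e-05 and 2.30e-06), and Ramp3, a partner of the calcitonin receptor-like receptor (1.97 ± 0.19 in KO, 1.12 ± 0.19 in WT, adjusted p of 5.83e-06 and 4.45e-04). Ptger4 was at 26.6 ± 4.02 CPM in KO_Af and 9.32 ± 0.876 in KO_PBS, and at 30.8 ± 4.47 in WT_Af and 9.35 ± 0.906 in WT_PBS. Vipr2, a receptor of vasoactive intestinal peptide, was lower, at 10.54 ± 1.19 CPM in KO_Af and 37.6 ± 4.50 in KO_PBS, and at 13.0 ± 0.752 in WT_Af and 32.8 ± 2.65 in WT_PBS (log2 -1.79 ± 0.11, adjusted p = 4.19e-07 in KO, and -1.30 ± 0.11, adjusted p = 4.73e-06 in WT). Adora2a, an adenosine receptor, was higher in KO_PBS, at 10.8 ± 0.287 CPM against 6.45 ± 1.2 in WT_PBS (log2 0.71 ± 0.17, adjusted p = 0.0381). That call was lost without KO_PBS 9, KO_PBS 10, KO_PBS 11, WT_Af 19, WT_Af 20, WT_PBS 15 or WT_PBS 17 (adjusted p of 0.127, 0.132, 0.114, 0.0566, 0.0568, 0.125 and 0.130).

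**Figure D4:**
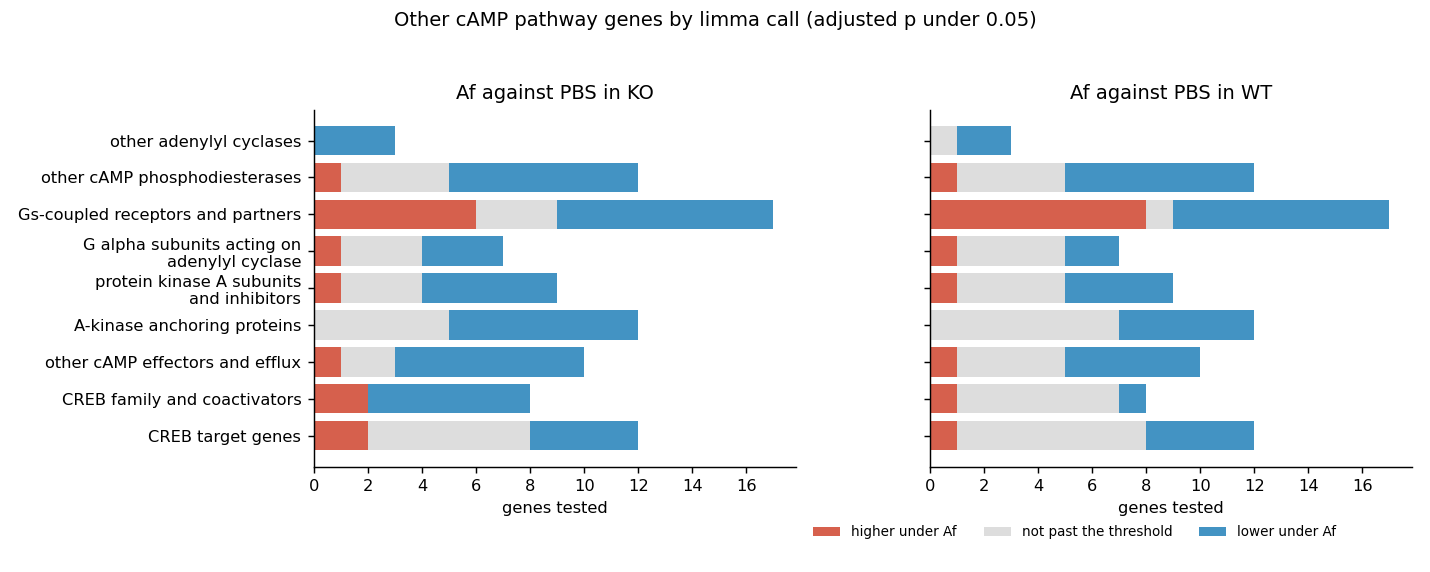
Number of tested genes in 9 lists of cAMP pathway genes that were higher (red), not past the threshold (grey) or lower (blue) under Af by limma adjusted p under 0.05, in KO (left) and WT (right). Lower genes outnumber higher ones in all 9 lists in KO, and in WT in all but the Gs-coupled receptors and partners (8 and 8) and the CREB family (1 and 1).

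Of 7 G protein alpha subunits that act on the cyclases 1 was higher and 3 lower in KO, and 1 higher and 2 lower in WT lungs, with medians of -0.19 and -0.04. The inhibitory subunit Gnai3 was higher (log2 0.66 ± 0.08 in KO and 0.46 ± 0.08 in WT), and Gnao1 (-1.46 ± 0.26 and -1.07 ± 0.26) and Gnaz (-0.82 ± 0.19 and -0.66 ± 0.19) were lower, with limma adjusted p of 5.07e-05, 8.99e-04, 5.50e-04, 0.00492, 0.00341 and 0.0131 in this order. In WT lungs the call of Gnaz was lost without WT_Af 20 (adjusted p = 0.0521). Of 9 protein kinase A subunits and inhibitors 1 was higher and 5 lower in KO, and 1 higher and 4 lower in WT, with medians of -0.23 and -0.22. The higher one was the kinase inhibitor Pkib, at 14.2 ± 1.44 CPM in KO_Af and 4.36 ± 0.291 in KO_PBS, and at 11.3 ± 1.95 in WT_Af and 4.16 ± 0.501 in WT_PBS (log2 1.60 ± 0.14, adjusted p = 3.84e-06 in KO, and 1.33 ± 0.14, adjusted p = 2.00e-05 in WT). The regulatory subunit Prkar1b was lower in both (-0.77 and -0.84, adjusted p of 1.86e-04 and 1.42e-04), as were the inhibitor Pkia (-0.44 and -0.74, adjusted p of 0.0239 and 0.00164) and the catalytic subunit Prkacb (-0.24 and -0.22, adjusted p of 0.0203 and 0.0297). In KO the call of Pkia was lost without KO_Af 13, KO_Af 14, KO_PBS 10 or KO_PBS 11 (adjusted p of 0.0811, 0.0987, 0.0726 and 0.0562), and that of Prkacb without KO_PBS 10 or KO_PBS 11 (0.0589 and 0.0516). In WT the call of Prkacb was lost without any one of the 6 WT libraries, with adjusted p of 0.0507 to 0.0870.

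Of 12 A-kinase anchoring proteins, which tether protein kinase A to places in the cell, 7 were lower in KO and 5 in WT lungs and 0 were higher, with medians of -0.40 and -0.29. Akap5 was at 143.4 ± 54.8 CPM in KO_Af and 488.3 ± 185.7 in KO_PBS, and at 125.1 ± 30.5 in WT_Af and 399.4 ± 35.8 in WT_PBS (log2 -1.76 ± 0.33, limma adjusted p = 8.26e-04 in KO, and -1.70 ± 0.33, adjusted p = 0.00131 in WT). Akap5 also stands in the list of alveolar type 1 markers. Akap14 (-0.96 in KO and -0.93 in WT) and Akap11 (-0.45 and -0.53) were lower too, with adjusted p of 1.45e-04, 2.61e-04, 0.00107 and 4.77e-04.

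Of 10 other effectors and cAMP efflux genes 1 was higher and 7 lower in KO, and 1 higher and 5 lower in WT, with medians of -0.95 and -0.63. They include Rapgef4 and Rapgef3, the cAMP-activated exchange factors known as Epac. Rapgef4 was lower in both genotypes (log2 -1.19 ± 0.23 in KO, -1.54 ± 0.23 in WT, limma adjusted p of 8.45e-04 and 1.92e-04), and so were Rapgef3 (-0.47 ± 0.16 and -0.76 ± 0.16, adjusted p of 0.0263 and 0.00223) and the cAMP-binding membrane protein Bves (-0.99 ± 0.22 and -1.03 ± 0.22, adjusted p of 0.00262 and 0.00251). In KO the call of Rapgef3 was lost without KO_Af 12, KO_PBS 9, KO_PBS 10 or KO_PBS 11 (adjusted p of 0.0951, 0.0673, 0.0544 and 0.0607). The channel subunit Cngb1 was lower in KO lungs (-1.33 ± 0.24, limma adjusted p = 5.88e-04). In WT its change of -0.50 ± 0.24 did not pass (adjusted p = 0.0984), though it did without KO_Af 12 or KO_Af 13 (0.0476 and 0.0311). Cngb1 levels were low, at 0.851 ± 0.466 CPM in KO_Af (8 to 33 reads) and 2.77 ± 0.334 in KO_PBS. They were 1.13 ± 0.200 CPM in WT_Af and 1.795 ± 0.233 in WT_PBS.

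In the CREB family and its coactivators 2 of 8 were higher and 6 lower in KO lungs, and 1 was higher and 1 lower in WT, with medians of -0.39 and -0.19. Atf1 was higher in both genotypes (log2 0.67 ± 0.06 in KO and 0.53 ± 0.06 in WT, limma adjusted p of 5.70e-06 and 4.46e-05). Crem, counted here and among the CREB targets, whose short products repress and whose long products activate transcription, was higher in KO_Af at 20.4 ± 5.47 CPM, against 10.3 ± 1.04 CPM in KO_PBS (0.93 ± 0.17, adjusted p = 7.96e-04), and in WT its change of 0.25 ± 0.17 did not pass (adjusted p = 0.236). The coactivator Crtc2 was lower in KO (-0.39 ± 0.10, limma adjusted p = 0.00654), and in WT its change of -0.16 ± 0.10 did not pass (adjusted p = 0.222), though it did without KO_Af 12 (0.0356). Crtc1 was lower in both (-0.38 ± 0.14 and -0.46 ± 0.14, adjusted p of 0.0313 and 0.0160). Its KO call was lost without KO_Af 12, KO_PBS 9, KO_PBS 10 or KO_PBS 11 (adjusted p of 0.0795, 0.0560, 0.0943 and 0.0617), and its WT call without WT_Af 19 or WT_PBS 15 (0.0589 and 0.0548). Whether the counts of this list differ between genotypes was not tested. For 0 of its 8 genes was the interaction called with limma, against 0.00620% of all tested genes.

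Among 12 genes known as CREB targets, 2 were higher and 4 lower in KO, and 1 was higher and 4 lower in WT lungs under Af, with medians of -0.09 and -0.28, where all tested genes had -0.02. Areg, which encodes the epithelial growth factor amphiregulin, was at 12.3 ± 1.27 CPM in KO_Af and 1.27 ± 0.327 in KO_PBS, and at 9.91 ± 0.555 in WT_Af and 2.48 ± 0.874 in WT_PBS. It rose by 2.87 ± 0.20 on the log2 scale in KO (limma adjusted p = 8.25e-07) and by 1.85 ± 0.20 in WT lungs (adjusted p = 2.56e-05). Nr4a2 was lower in both (-1.14 ± 0.15 and -0.63 ± 0.15, adjusted p of 5.88e-05 and 0.00409) and so was Dusp1 (-0.85 ± 0.18 and -0.79 ± 0.18, adjusted p of 0.00186 and 0.00341). Sik1, a kinase that restrains the CREB coactivators, was higher in KO_PBS, at 171.7 ± 15.4 CPM against 106.5 ± 13.9 CPM in WT_PBS (0.69 ± 0.16, adjusted p = 0.0376). Averaged over both exposures its difference was 0.65 ± 0.11 (adjusted p = 0.0158), with 105.5 ± 20.6 CPM in KO_Af and 68.7 ± 11.2 CPM in WT_Af. The PBS call was lost without KO_PBS 9, KO_PBS 10, KO_PBS 11, WT_Af 19, WT_PBS 15, WT_PBS 16 or WT_PBS 17 (adjusted p of 0.0956, 0.158, 0.102, 0.0598, 0.109, 0.117 and 0.0544), and the averaged call without KO_PBS 10 (0.0557). Of the 9 lists, KO against WT under Af gave 0 calls in all with limma without weights, where 0.0868% of all tested genes were called.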

How the data were processed

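Per the labels' protocols, a TruSeq mRNA kit was used for the libraries. Per the submitters' processing notes, the tools were RSEM 1.3.0, STAR 2.7.6a and cutadapt 1.18, and the builds named are GRCm38 and GRCh38. The authors deposited a signal per gene and library, CPM after TMM scaling. All values were whole multiples of 1 read (100% at a tolerance of 0.01), so reads were recovered by division. Of the identifiers 99.5% matched GENCODE M21 (GRCm38), which gave exon lengths, taken as the union of exons.

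Genes at 1 CPM or more in 3 of 12 libraries (16126) were tested on log2(CPM + 0.5) in R 4.3.3, using limma 3.58.1 and its mean-variance trend. The pseudocount understates changes of low genes. One fit over 4 groups had 8 residual degrees of freedom. Alternatives were pseudocounts of 0.1 and 1, filters, rescalings, variance models, fits of the compared groups alone, edgeR 4.0.16 and DESeq2 1.42.0 on recovered reads, and leaving out libraries. Figures used matplotlib 3.10.9.

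The 9 genes and all lists were chosen with earlier results of these data known. Named were the 9 genes, Rgs4, and from each list and comparison up to 3 called genes with the smallest p, of which 1 is not reported here. Likeness left out Gm, Rik, immunoglobulin and T cell receptor names. Adcy10 and Pde2a fall outside this rule and were named after their values were seen. Library numbers coincide with genotype and exposure.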

Additional observations from a re-analysis of the deposited data

How the results depend on the processing

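Over 27 alternatives, 1369 of 1440 values of the 9 genes kept their direction and side of the threshold, 12 lost and 19 gained a call, and 40 changed sign, 3 of them under Af against PBS. For the other named genes 87 of 1915 values lost and 7 gained a call, and 0 changed sign. Of 1440 counts of genes called per list, 125 moved by over 1.5 times or between 0 and another count. The cause was not tested for any of these. No paired analysis was possible because every library number occurs once. No scaling moved the median of all genes by over 0.1.

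The counts of members called moved with array weights (KO against WT: 1 under PBS, 4 under Af, 2 averaged, and 2 for the interaction, where 16.4%, 13.7%, 20.0% and 9.93% of all genes were called), with DESeq2 (1 under Af and 1 averaged, where 1.17% and 7.21% of all genes were) and without KO_Af 13, where over all single libraries left out they ran from 0 to 1 under Af, 0 to 2 averaged and 0 to 1 for the interaction (0.691%, 5.06% and 1.16% of all genes without KO_Af 13). Pde4b under Af in KO also lost its call without the filter on low values (adjusted p = 0.0831), with plain CPM (0.0747) and without the trend (0.0587). With array weights Adcy7 in KO (-0.26, adjusted p = 0.0138) and Pde4d under PBS (-0.26, 0.0343) were called, as was averaged Adcy8 (-0.33, 0.0472).

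Signs changed as follows, on the log2 scale. With array weights, Adcy2 was at 0.054 under Af in KO and 0.061 averaged, Adcy4 at 0.18 for KO against WT under Af and 0.15 for the interaction, and Adcy7 at 0.043 and Pde4d at 0.07 for KO against WT under Af. Averaged Adcy2 was at 0.020 with upper quartile rescaling and 0.0017 with edgeR. Pde4b in KO against WT under PBS was at 0.012 with plain CPM and 0.018 with upper quartile rescaling. Without both WT_PBS 17 and KO_Af 12, Adcy4 was at 0.15 for KO against WT under Af and 0.040 for the interaction, Adcy7 at 0.089 and 0.014, averaged Pde4a at 0.028, Pde4b at 0.13 under PBS and Pde4d at 0.0069 under Af. Single libraries left out gave ranges that crossed 0. For KO against WT under PBS these were -0.16 to 0.056 (Adcy2), -0.036 to 0.17 (Adcy9) and -0.28 to 0.13 (Pde4b). Under Af they were -0.13 to 0.15 (Adcy4), -0.16 to 0.089 (Adcy7) and -0.26 to 0.0069 (Pde4d), and averaged -0.039 to 0.068 (Adcy2), -0.026 to 0.12 (Adcy4) and -0.12 to 0.011 (Pde4a). For the interaction Adcy4 ran from -0.22 to 0.069, and for Af against PBS in WT Adcy7 from -0.17 to 0.074 and Pde4b from -0.15 to 0.26. Where 1 library is left out, its group has 2 and shares the spread of the others.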
